A study of Mus musculus with 43 samples.

Results

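The common response of the mouse retina to short-chain fatty acids (SCFA) was examined over both sexes and all 3 time points after laser injury. The comparison used 29 of the 43 libraries of the series, 15 from SCFA-treated and 14 from control mice, in 6 strata of sex and day, and asked which genes lay on the same side of control in every stratum. All mice were C57BL/6J, were lasered at 9 weeks of age to induce choroidal neovascularization (CNV), and gave retinas at 3, 7 or 14 days post-laser (dpl). Each library pooled 2 retinas from different mice. The treated mice drank water with acetate, butyrate and propionate from before the laser injury onwards, and the control mice did not. The labels give 67.5 mM (5.54 g/L) acetate, 25 mM (4.4 g/L) butyrate and 40 mM (2.48 g/L) propionate, and for butyrate and propionate the molar and mass values do not match each other, so those doses are uncertain. No unlasered retina entered this comparison, so laser injury was shared by both groups.

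The strata were unequal in size. Male mice gave 2 control and 1 SCFA library at 3 dpl, and 3 and 3 at both 7 and 14 dpl. Female mice gave 3 control and 2 SCFA libraries at 3 dpl, 2 and 3 at 7 dpl, and 1 and 3 at 14 dpl. Total counts ran from 14826957 to 21507527 per library, with a median of 17584652. A female 3 dpl SCFA library rich in lens transcripts and a female 7 dpl control library with Y-linked transcripts were left out. The other 12 libraries stand as a second block of columns in the count table, and 7 of them, from male mice at 3 dpl and female mice at 14 dpl, have both treatments and served as libraries that did not choose any gene. All 22 rod photoreceptor genes of the marker list passed the filter on low counts, as did all 13 Müller glia genes and all 15 bipolar cell genes.

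Acetate, propionate and butyrate are made by gut bacteria from dietary fibre. They are sensed by G protein-coupled receptors, enter cells through monocarboxylate transporters, and butyrate in particular inhibits histone deacetylases. Immediate early genes are transcription factors and signalling regulators whose mRNA appears within minutes of calcium or MAP kinase signalling and then decays. In the retina they respond to light, growth factors and injury. Egr1, Egr4, Fos, Fosb and Junb encode transcription factors of this kind, and Nr4a1 encodes an orphan nuclear receptor.

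The promoters of 4 of the immediate early genes that were lower with SCFA in every stratum are shown because these genes moved together. They are the ones of smallest adjusted p after Egr1, whose promoter is not shown. Each line gives the 250 bases before the RefSeq start site on GRCm38.p6, 5′ to 3′, and capitals mark GC boxes (GGGCGG on either strand), of which the Junb stretch holds none.
Nr4a1 (chr15:101266596-101266845, strand +): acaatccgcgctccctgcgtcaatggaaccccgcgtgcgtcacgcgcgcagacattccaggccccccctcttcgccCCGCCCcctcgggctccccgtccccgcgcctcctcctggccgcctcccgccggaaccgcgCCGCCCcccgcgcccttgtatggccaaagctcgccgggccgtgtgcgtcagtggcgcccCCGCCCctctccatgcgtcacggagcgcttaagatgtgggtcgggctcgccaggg
Fosb (chr7:19310046-19310295, strand -): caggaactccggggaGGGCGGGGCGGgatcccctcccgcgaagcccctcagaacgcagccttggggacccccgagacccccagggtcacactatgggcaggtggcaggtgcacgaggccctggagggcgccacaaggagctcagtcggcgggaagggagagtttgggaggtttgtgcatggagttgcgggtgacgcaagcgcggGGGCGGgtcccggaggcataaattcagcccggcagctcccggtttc
Junb (chr8:84978749-84978998, strand -): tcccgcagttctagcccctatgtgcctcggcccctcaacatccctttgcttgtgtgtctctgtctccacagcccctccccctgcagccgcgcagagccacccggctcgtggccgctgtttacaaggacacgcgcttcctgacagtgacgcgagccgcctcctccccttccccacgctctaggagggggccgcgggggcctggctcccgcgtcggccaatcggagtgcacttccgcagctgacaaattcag
Fos (chr12:85473640-85473889, strand +): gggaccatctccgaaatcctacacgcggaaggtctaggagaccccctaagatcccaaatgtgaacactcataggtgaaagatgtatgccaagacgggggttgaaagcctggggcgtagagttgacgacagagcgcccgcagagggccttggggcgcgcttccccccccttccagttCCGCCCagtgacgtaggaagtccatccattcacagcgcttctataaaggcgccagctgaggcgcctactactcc
Of the 15 immediate early genes concerned, 12 had a promoter in the RefSeq table. Over the full windows, which also hold 50 bases past the start site, 10 of these 12 carried a GC box, which is 83.3%. Among all tested genes with a promoter the share was 63.6%, and among all 27025 genes of the table it was 38.2%, a gene with several promoters counting once. The shares below are given first for tested genes with a promoter and then for those 27025 genes. The cAMP response element TGACGTCA was found in 1 of the 12 (8.33%) against 3.27% and 2.03%. The AP-1 motif TGANTCA was found in 1 of the 12 against 6.43% and 8.97%. The E-box CACGTG was found in 2 of the 12 against 10.8% and 8.09%, and the EGR site GCGTGGGCG in 1 against 1.3% and 0.707%. No window of the 12 held a CArG box, the binding site of serum response factor, against 1.65% and 1.81%. Sites outside these windows were not searched, and Egr1 was not among the 12. Both strands were searched, and these matches describe letters, not binding.

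Many genes differed between SCFA and control libraries, most of them by small amounts. Of 19169 genes tested, 6408 (33.4%) passed the edgeR quasi-likelihood test at an adjusted p under 0.1, with 3139 (16.4%) higher and 3269 (17.1%) lower in SCFA-treated mice. The sign was the same in all 6 strata for 2483 of the called genes, which is 13% of all genes tested. Of these 1163 (6.07% of all genes tested) were higher and 1320 (6.89%) lower. The remaining 3925 called genes had at least 1 stratum on the other side. Over the 2483 same-sign genes the median absolute log2 fold change was 0.32, and 1976 lay under 0.5. In the 7 libraries of the second block, 34.9% of the 2430 same-sign genes tested there had the same direction. An absolute log2 fold change over 1 was reached by 89 of them (0.464% of all genes tested), 41 higher (0.214%) and 48 lower (0.25%). Of the called genes with or without a common sign, 245 reached it (1.28% of all genes tested). Of the 41 higher genes 32 had no established name, whereas 41 of the 48 lower genes had one. Complete separation of the libraries in every stratum was seen for 103 higher (0.537% of all genes tested) and 119 lower genes (0.621%), where a stratum with 1 library in an arm separates easily. Because RNA was taken from whole retina, fewer cells of a type and less RNA per cell cannot be told apart.

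Egr1 had the smallest p of all genes tested. In control libraries it lay between 41 and 158 CPM (counts scaled to library size with TMM factors), with a median of 104, and in SCFA libraries between 15.2 and 55.3, with a median of 28.4. The log2 fold change, given here and below as SCFA over control with its standard error, was -1.85 ± 0.17 (edgeR, adjusted p = 9.998e-08, n = 14 and 15). No stratum showed overlap between the groups. In male mice at 3 dpl the controls held 81.4 and 64 CPM against 28.4 in the SCFA library. At 7 dpl the male controls held 158, 103 and 119 CPM against 33.4, 18.3 and 15.2, and at 14 dpl 102, 102 and 112 against 30.4, 16.7 and 55.3. Each male SCFA library thus lay below each male control library of its day. In female mice the controls held 112, 92.2 and 133 CPM at 3 dpl against 28.7 and 25.3 with SCFA. At 7 dpl they held 111 and 41 against 21.1, 34.9 and 27.9, and at 14 dpl the 1 control held 105 against 19.1, 39.5 and 35.1. The female 7 dpl control replicate 3, at 41 CPM, was the lowest control and lay close to the SCFA libraries.

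**Figure D1:**
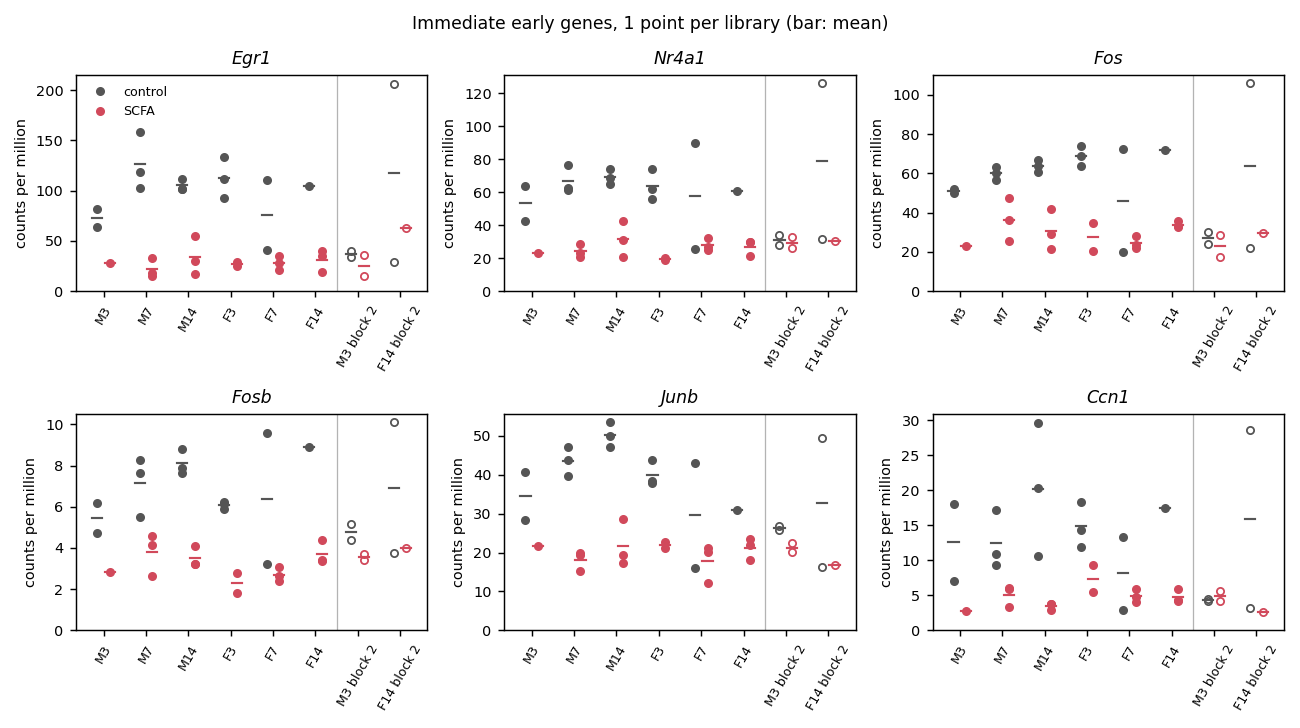
CPM of 6 immediate early genes in every library (vertical axis, linear from 0) by stratum (M male, F female, number of days post-laser), with control in grey, SCFA in red and bars at group means. Filled points are the 29 libraries compared and open points the 7 libraries of the second block; Egr1 controls sit between 41 and 158 CPM and SCFA libraries between 15.2 and 55.3, and 1 female 7 dpl control lies among or below the SCFA libraries for Fos, Nr4a1 and Junb.

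Most members of the immediate early list were called lower. All 30 members were tested: 21 were called lower and 4 higher, beside 17.1% and 16.4% of all genes tested. With the same sign in all strata 15 were lower and 1 higher, beside 6.89% and 6.07% of all genes tested. The list's median log2 fold change was -0.72, beside -0.02 over all genes. Fosb, partner of Jun proteins in AP-1, was at 3.24 to 9.56 CPM in controls and 1.83 to 4.6 with SCFA, with no overlap in any stratum and a log2 fold change of -1.16 ± 0.12 (edgeR, adjusted p = 5.68e-07). Nr4a1 fell from a control median of 63.3 CPM (range 25.7 to 89.8) to 25 (18.7 to 42.3), a log2 fold change of -1.31 ± 0.13 (edgeR, adjusted p = 2.38e-07). Its groups overlapped at 1 point, the female 7 dpl control replicate 3 at 25.7 CPM, which lay among the SCFA values of 25, 32.2 and 26.5.

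Fos and Junb, which encode partners in the AP-1 dimer, showed the same exception. Fos was at 20 to 74.2 CPM in controls (median 63.6) and 20.5 to 47.7 with SCFA (median 28.9), a log2 fold change of -1.02 ± 0.13 (edgeR, adjusted p = 4.49e-06). In female mice at 7 dpl the controls held 72.2 and 20 CPM of Fos against 21.9, 23.4 and 28 with SCFA, so 1 control lay below all treated libraries. Junb was at 16.1 to 53.6 CPM in controls and 12.1 to 28.6 with SCFA, a log2 fold change of -0.95 ± 0.12. Over the 30 genes summed, that library had 471 CPM, the lowest of the 14 controls, where the controls ran up to 917 with a median of 833 and the SCFA libraries from 473 to 660 with a median of 541.

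The lower members were not only AP-1 and EGR factors. Egr4 had the steepest log2 fold change of the list, -2.16 ± 0.30, at a control median of 4.84 CPM and an SCFA median of 0.974. Its lowest control, at 0.0662 CPM, lay below its lowest SCFA library, at 0.24. Ccn1, a secreted matricellular protein and target of growth factor signalling, fell by 1.56 on the log2 scale, from a median of 13.8 to 4.35 CPM. The Krüppel-like factors Klf2 and Klf4 had log2 fold changes of -0.94 and -1.03, and Npas4, a neuronal activity factor, -0.74. For Klf2 the lowest control, at 6.29 CPM, lay below the lowest SCFA library, at 7.01. Sik1 (-0.84), Csrnp1 (-0.91), Maff (-0.89), Atf3 (-0.71) and Ier2 (-0.50) completed the 15. Ier5 was the member that rose in every stratum, with a log2 fold change of 0.38. Klf10, Nr4a2 and Ier3 were called higher without a common sign. Jun (-0.10, adjusted p = 0.315) and Btg2 (-0.07, adjusted p = 0.531, both edgeR) did not pass the test.

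MAP kinase feedback genes, p53 targets and clock genes formed 3 further lists. Dusp1, a phosphatase that switches off MAP kinases, went from a median of 37.3 CPM in controls to 24.8 with SCFA, a log2 fold change of -0.67 ± 0.12. Of the 13 tested MAP kinase feedback genes, 2 were lower in every stratum, Dusp1 and Spred3 (-0.20). In that list 3 were called higher, where 16.4% of all genes tested were, and the list median was 0.13. Apold1, an endothelial early response gene, and Depp1, a FOXO target, had log2 fold changes of -1.21 and -1.47. The lowest Apold1 control, at 1.79 CPM, lay below the lowest SCFA library, at 2.47. Bmp2, a secreted growth factor, had -1.01, and Plin4, a lipid droplet coat protein, -1.02. The p53 target list held 1 higher and 4 lower same-sign genes of 13 tested, with a list median of -0.19: Cdkn1a, the cell cycle inhibitor p21, fell from a median of 11.8 CPM (6.02 to 17.6) to 6.64 (4.24 to 10.1), a log2 fold change of -0.71 ± 0.12. Plk2 (-0.33), Bax (-0.28) and Sesn1 (-0.12) were lower as well and Ccng1 (0.28) higher. In the circadian list Per1, a clock repressor, fell by 0.38 on the log2 scale with no overlap in any stratum, Arntl (-0.17) and Ciart (-0.22) were lower, and Hlf (0.43), a clock-controlled activator, was higher, 4 of 20 members in all, where 13% of all genes tested were of 1 sign. With each library's trend in GC content and transcript length removed, an alternative chosen after seeing the data, the calls of Spred3 (-0.07), Bax (-0.04, edgeR, adjusted p = 0.674) and Ciart (-0.13) were lost. Ccng1 (0.12), Sesn1 (-0.10), Per1 (-0.21) and Hlf (0.33) stayed called without a common sign.

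The 12 higher genes with the smallest adjusted p were led by a pair of BTB-kelch proteins that act as substrate adaptors of CUL3 ubiquitin ligases. Kbtbd8 lay between 4.4 and 9.52 CPM in the 14 controls and between 9.6 and 17.5 in the 15 SCFA libraries, so the groups did not overlap even across strata. Its log2 fold change was 0.92 ± 0.09 (edgeR, adjusted p = 9.998e-08). Kbtbd7 was at 31.9 to 65.1 CPM in controls and 58.2 to 92 with SCFA, without overlap within any stratum, at 0.75 ± 0.08 (edgeR, adjusted p = 5.68e-07). Fam135b (0.69), Fbxl14 (0.46), an F-box protein, Golph3l (0.56), a Golgi protein, and Tmem185b (0.57) followed, and all 4 also separated completely in each stratum. Ptch1, the Hedgehog receptor, had a log2 fold change of 0.59 and Fzd7, a Wnt receptor, 0.79. Naf1 (0.70), needed for box H/ACA ribonucleoprotein assembly, Phf8 (0.51), a histone demethylase, Atad1 (0.53), an AAA protein of the mitochondrial outer membrane, and Gabrr3 (0.58), a GABA receptor subunit, closed the 12.

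Among the 12 lower genes with the smallest adjusted p, Egr1, Nr4a1 and Fosb were joined by genes of ordinary cell function. Klhdc4, a kelch protein, lay between 41.5 and 57.5 CPM in controls and between 25.4 and 39.4 with SCFA, a log2 fold change of -0.54 ± 0.06 (edgeR, adjusted p = 5.68e-07). Unc45a, a myosin chaperone, lay between 114 and 177 CPM in controls and 89.7 and 111 with SCFA, and neither gene overlapped across the 29 libraries. Tsta3 (-0.47), an enzyme of GDP-fucose synthesis, Rnf31 (-0.51), the catalytic part of the linear ubiquitin ligase, Atrip (-0.56), partner of the ATR kinase, Acbd4 (-0.37), Mok (-0.57) and Nacad (-0.51) had changes of similar size. Ddit3, the stress factor CHOP, fell from a median of 81.9 CPM to 53.5, a log2 fold change of -0.56 ± 0.06, without overlap in any stratum. Among genes without an established name, Gm16023 (1.05) and Gm42547 (0.86) led the higher and D11Wsu47e (-0.77) and 1810026B05Rik (-0.59) the lower ones.

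**Figure D2:**
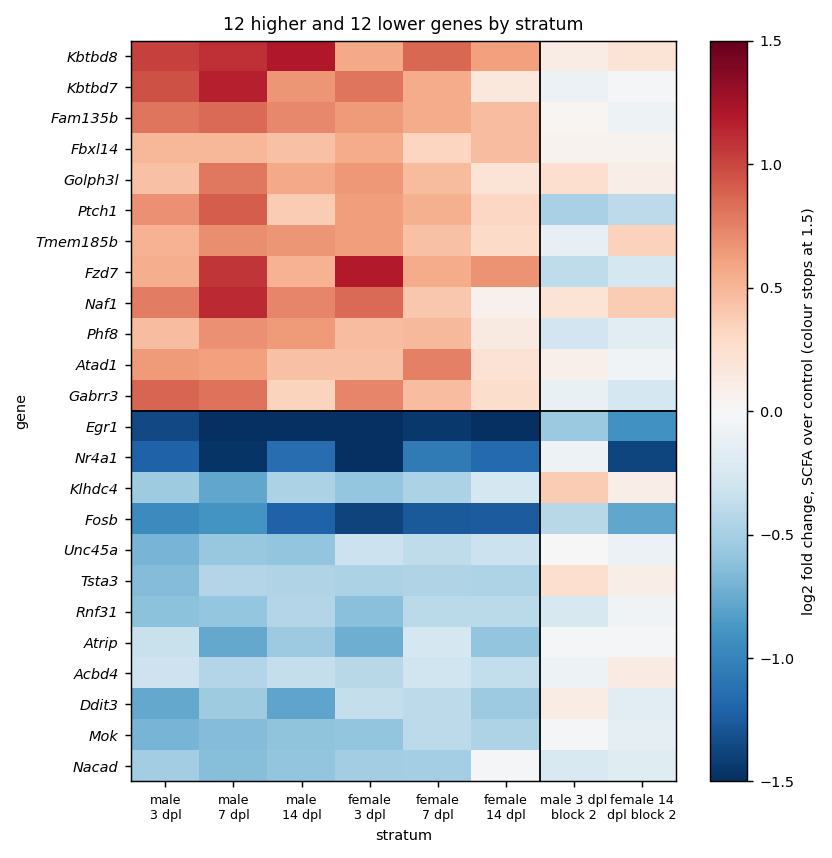
Log2 fold change (colour, SCFA over control) of the 12 higher and 12 lower named genes with the smallest adjusted p, by stratum (columns), with both strata of the second block to the right of the line. All 6 left columns have one colour per gene by selection, Egr1 reaching -2.51 in male mice at 7 dpl, whereas Ptch1 and Fzd7 are below 0 in both right columns.

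The number of genes called differed between the strata, which also differed in their number of libraries. Tested alone, male mice at 7 dpl gave 5130 called genes, male mice at 14 dpl 2505 and female mice at 3 dpl 1497. The other strata gave 25 (female, 7 dpl), 1 (female, 14 dpl, with 1 control) and 0 (male, 3 dpl, where 1 SCFA library faced 2 controls and 2133 genes had an unadjusted p under 0.05 in edgeR). In the male libraries alone 35.2% of 18623 genes were called and in the female libraries alone 12.5% of 18444. Of the 2483 same-sign genes, 2054 were called in males alone, 1017 in females alone and 897 in both. A test of the difference between the sexes called 68 of the 2483, 48 of them among the higher genes, where 7.64% of all tested genes were called. A difference among the 6 strata was called for 4 of the same-sign genes, Sox9, Ube2r2, Efhd1 and Elovl6, and for 265 (1.38%) of all genes tested. For Sox9, a transcription factor of Müller glia, the log2 fold change was 1.27 in males and 1.16 in females at 7 and 3 dpl respectively, but 0.06 in males at 3 dpl and 0.36 in females at 14 dpl. A difference among the days was called by edgeR for 0 of 19169 genes, with 1411 at an unadjusted p under 0.05, and by DESeq2 for 2.

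Genes that handle SCFA changed in part. Of 12 receptors and transporters 7 passed the filter on low counts. Slc16a7, a monocarboxylate transporter, rose from a median of 7.13 CPM to 9.81, a log2 fold change of 0.52 ± 0.09, and Slc5a8, the sodium-coupled transporter, had 0.26 ± 0.11 (edgeR, adjusted p = 0.0943). With the GC and length trend removed Slc16a7 had 0.23 and Slc5a8 had 0.06 (edgeR, adjusted p = 0.727), and in the second block they had -0.30 and -0.14. Slc16a1 (0.32) was called but not of 1 sign. Among 16 enzymes of SCFA and ketone metabolism 2 were higher and 2 lower with 1 sign. Mut, the mitochondrial methylmalonyl-CoA mutase, was higher (0.40) and Pcca, a subunit of propionyl-CoA carboxylase, lower (-0.33), with Acat1 (0.14) higher, which had 0.09 with the trend removed (edgeR, adjusted p = 0.245). Of 11 histone deacetylases, Hdac5 (-0.38) and Hdac3 (-0.32) were lower and Hdac9 (0.39) higher in every stratum. Over all genes tested 13% were of 1 sign, the share to set beside these 3 lists. With the trend removed Hdac9 (0.27) stayed called without a common sign. In the second block 1 of the 3 deacetylases kept its direction, and 0 did so in both strata. All 4 enzymes kept theirs, 3 of them in both strata.

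Gene lists of retinal cells and of housekeeping functions moved in part, most by small amounts. Ribosomal protein genes had 15 same-sign members lower and 0 higher of 80 tested, with a list median of -0.13, Rps20 at -0.35 being the lowest of the 15. Nuclear subunits of oxidative phosphorylation had 14 lower and 0 higher of 81, with a median of -0.09. The 13 mitochondrially encoded mRNAs had 7 called higher, where 16.4% of all genes tested were, and none of 1 sign. Their list median was 0.42. Clustered protocadherins, adhesion molecules of neurons, had 8 higher and 0 lower of 52, led by Pcdhb18 (0.70). Glutamate, GABA and glycine receptor subunits had 10 higher and 1 lower of 51, with Grm5 at 0.54 and Grik5, the lower one, at -0.23, or -0.01 with the GC and length trend removed (edgeR, adjusted p = 0.921). Against the same-sign counts stand the 6.07% higher and 6.89% lower of all genes.

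Among cell type markers, bipolar cell genes had 5 higher and 0 lower of 15, with Tacr3 at 0.56 and Vsx1 at 0.55. Over all genes tested 6.07% were higher and 6.89% lower with 1 sign, the shares to set beside the counts of this paragraph. Amacrine and horizontal cell genes had 4 higher of 16, with Gad2, which makes GABA, at 0.47 and Tfap2b at 0.42. In that list 1 member was called lower, and the values ran from -0.52 to 0.47 with a median of 0.07. Müller glia genes had 2 higher of 13, Sox9 at 0.73 and the water channel Aqp4 at 0.44. Here too 1 member was called lower, and the values ran from -0.34 to 0.73 with a median of 0.10. Neither Sox9 nor Aqp4 kept its direction in the second block. With the GC and length trend removed Aqp4 (0.27) and Tfap2b (0.34) stayed called without a common sign. Retinal ganglion cell genes had 3 lower of 13, with Isl2 at -0.53, and rod genes 1 higher and 4 lower of 22. Homeostatic microglia genes had 0 of 19 of 1 sign, disease-associated microglia genes 1 lower of 15, complement genes 1 lower of 15 and antigen presentation genes 1 lower of 17, the invariant chain Cd74 at -0.60 (edgeR, adjusted p = 0.0616), whose call was lost with the trend removed (edgeR, adjusted p = 0.205). Type I interferon genes had 2 lower of 20, Irf7 (-0.38) and Mx2 (-0.68).

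The remaining lists gave few same-sign members, and 13% of all genes tested were of 1 sign. Gliosis genes had 2 lower of 14, Cebpd (-0.25) and Lcn2 (-0.45), both no longer called with the trend removed (edgeR, adjusted p = 0.134 and 0.148), glucocorticoid targets and metallothioneins 2 lower of 12, with Mt2 at -0.55, and heat shock proteins 1 higher and 1 lower of 13. Cholesterol synthesis genes had 3 higher and 2 lower of 22, replication-dependent histone genes 3 higher and 1 lower of 29, with Hist1h2be at 0.59, and collagen genes 1 lower of 43. Endothelial and mural genes had 1 lower of 19, myelin genes 1 lower of 15 and red blood cell genes 1 lower of 5. Cone, cell division, pigment epithelium and lens genes had none. Of 34 genes that the study itself named for SCFA from overlapping libraries, which are therefore no independent evidence, 3 were higher (Epha3, Esrrg and Nrarp) and 8 lower in every stratum. In the second block 6 of these 11 kept their direction. There Epha3 had a mean of 7.37 CPM in controls and 5.24 with SCFA, and Nrarp 2.68 and 1.91.

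Few named genes rose by more than 1 on the log2 scale. The 9 that did in every stratum were at low levels, under 3 CPM on average in both groups. Wdr38 had 1.17, Ccdc38 1.12, Vmn1r32 1.05 and the pseudogene Selenok-ps1, whose reads may be shared with its parent gene, 1.15. The other 5 had a control median under 3 counts, which is 0.171 CPM at the median depth, so their size is not given as a fold change. Stat4, a transcription factor of cytokine signalling, had a median of 0.0865 CPM in controls and 0.42 with SCFA, and Pou1f1, the pituitary factor, 0.17 and 0.376. Irs4, an insulin receptor substrate, had 0.0574 and 0.157 CPM, Sucnr1, the succinate receptor, 0.0608 and 0.195, and Ict1os 0.115 and 0.357. The filter asked for about 10 counts in as few libraries as the smallest group held, which was 1. In controls Stat4 reached at most 0.463 CPM, Pou1f1 0.345, Irs4 0.219 and Sucnr1 0.31. With SCFA they reached 0.623, 0.944, 0.573 and 0.955. Such genes could enter the test through SCFA libraries alone, so their direction is no support for an effect. Among the lower genes Gpx3, a secreted glutathione peroxidase, went from a mean of 279 CPM to 138, a log2 fold change of -1.21 ± 0.35, with -3.47 in females and -2.63 in males at 3 dpl but -0.09 in males at 14 dpl. Emp1 (-1.06), Tgm1 (-1.13), Cfap43 (-1.28) and mt-Ta (-1.14), a mitochondrial tRNA, also fell by more than 1. Ribosomal, histone and protocadherin genes have close copies, and how reads were split among copies is not given in the sources used here.

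A group of surface epithelium genes accounted for several of the steepest lower fold changes and was chosen after the values were seen. Of 16 genes, 14 were lower in every stratum, among them the keratins Krt15 (-3.10), Krt5 (-2.16), Krt6a (-2.14), Krt13 (-2.22) and Krt19 (-1.44), and the mucin Muc4 (-1.80). Krt4 had a median of 0.379 CPM in controls and 0.047 with SCFA, and Alox12e, a lipoxygenase outside the list, 0.286 and 0 CPM. The listed transcripts belong to cornea and conjunctiva, not neural retina. Summed over the list, controls held 2.54 to 139.5 CPM (median 12.5) and SCFA libraries 1.2 to 10.4 (median 4.29). Krt15 was at a median of 1.84 CPM in controls and 0.335 with SCFA, and 1 control, female 3 dpl replicate 2, held 41. Krt14 had 0 counts in 5 of 14 control and 12 of 15 SCFA libraries. With SCFA Krt14 reached at most 0.104 CPM and Krt4 0.441, so both could pass the filter through control libraries alone. In the second block 4 of the 16 genes were tested and 1 was lower. Without the 4 control libraries with the highest sum, 4159 genes were called and 1798 were of 1 sign, 1717 of them shared with the 2483.

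**Figure D3:**
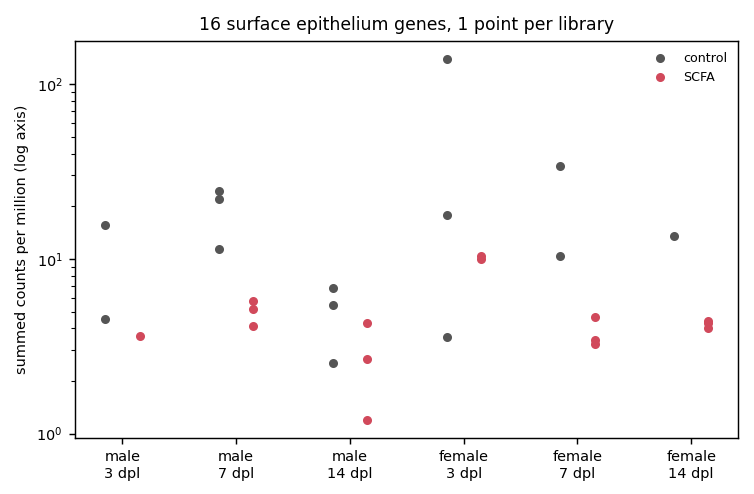
Summed CPM of 16 surface epithelium genes in each of the 29 libraries (vertical log axis) by stratum, control in grey and SCFA in red. Controls range from 2.54 to 139.5 and SCFA libraries from 1.2 to 10.4.

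Transcript composition moved with the treatment difference. Across 19151 genes with an annotated transcript, the log2 fold change correlated with GC content at a Spearman rho of -0.42, a description over genes that share the same libraries. Same-sign higher genes had a median GC content of 44.55% and lower genes 54.42%, against 49.34% over all tested genes. When genes were ranked by GC content into 5 equal bins, 12.1% of the lowest bin were higher and 1.23% lower in every stratum, and 1.04% and 14.8% of the highest bin. The relation was seen in 5 strata, with rho between -0.39 and -0.14, and not in females at 14 dpl, where it was 0.03. When each library's trend with GC content and transcript length was removed, which was chosen after seeing the data, 4998 genes were called and 2012 were of 1 sign, 1350 of them shared with the 2483. Of the 15 immediate early genes 14 stayed lower in every stratum, with a median log2 fold change over the 15 of -0.74, beside -0.95 before removal. Egr1 had -1.69 and Ier2 -0.29, and Maff stayed called without a common sign. Of the 112 same-sign genes named here, 9 lost their call and 12 more lost only the common sign. The share of counts from mitochondrial genes also differed, with a median of 6.55% in controls and 7.95% with SCFA, and with that share as a covariate 4516 genes were called.

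**Figure D4:**
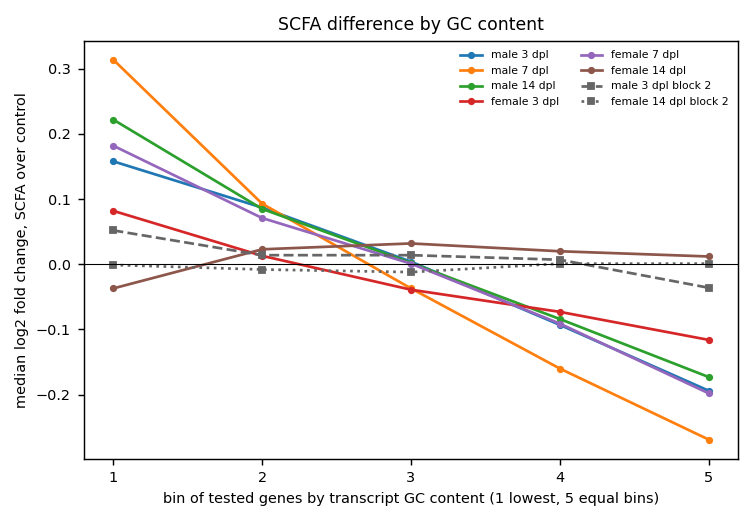
Median log2 fold change (vertical axis, SCFA over control) of tested genes in 5 equal bins of transcript GC content (horizontal axis) for the 6 strata and both strata of the second block. In males at 7 dpl the median falls from 0.31 in the lowest bin to -0.27 in the highest, and in females at 14 dpl it is -0.04 in the lowest and 0.01 in the highest.

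The 7 libraries of the second block gave a different picture for most same-sign genes. These were 2 control and 2 SCFA libraries of male mice at 3 dpl and 2 control and 1 SCFA library of female mice at 14 dpl, and 15.5% of 17718 genes were called in them. Of the higher genes 1140 were tested there and 403 (35.4%) were higher again. Of the lower genes 1290 were tested and 444 (34.4%) were lower again, so in both directions most genes lay on the opposite side, where 47.9% of all genes tested in both sets had the same direction. Called in the same direction were 98 of the 2430, and 159 of the higher and 67 of the lower genes were called in the opposite one. Leaving out either male control took the 98 to 0, leaving out the male SCFA replicate 3 took it to 1, and leaving out the female 14 dpl control replicate 3 took it to 197. Of the genes with an absolute log2 fold change over 1, 27 of the 41 higher and 24 of the 48 lower passed the filter there, and 21 (77.8%) and 20 (83.3%) of these had the same direction. Without the 7 immediate early genes among the lower ones it was 13 of 17 (76.5%), and without the female 14 dpl control replicate 3 it was 18 of 23 (78.3%). The 41 and 48 genes had a median level of 0.612 and 0.603 CPM in the 29 libraries. At such levels a gene could pass the filter through 1 arm alone, and genes that failed it are not counted. These shares are therefore a description only.

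Controls of the same sex and day differed between the blocks. In male mice at 3 dpl the second-block controls were nearer to the first-block SCFA library for 72.7% of the same-sign genes and for 50.7% of all genes. In female mice at 14 dpl, with 1 first-block control, these shares were 62.7% and 72.5%. Of the 15 immediate early genes the second-block controls were nearer to the first-block SCFA libraries for 80% in male mice at 3 dpl and 40% in female mice at 14 dpl. Kbtbd7 in male mice at 3 dpl was at 32.4 and 36.4 CPM in the first-block controls and 69.1 and 67.5 in the second-block controls. It was at 66.8 in the first-block SCFA library and 67.5 and 61.4 in the second-block ones. Klhdc4 in the same mice was at 57.5 and 57.2 CPM in the first-block controls and 32 and 29.9 in the second-block controls. With SCFA it was at 39.4, 36.7 and 44.2. Each block was scaled on its own for these CPM. For both genes the second-block controls of male mice at 3 dpl lay on the SCFA side of the first-block controls. In female mice at 14 dpl Kbtbd7 was at 65.1 CPM in the first-block control. The second-block controls there held 75.1 and 60.9, on either side of it. Klhdc4 was at 41.5 CPM in that first-block control and 30.6 and 36.8 in the second-block ones.

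**Figure D5:**
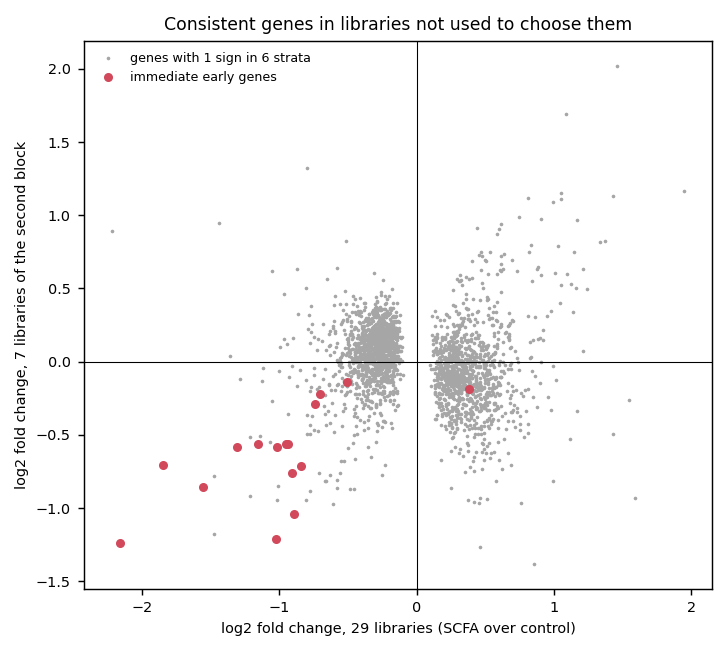
Log2 fold change of the same-sign genes in the 29 libraries (horizontal axis) against the 7 libraries of the second block (vertical axis), 1 point per gene, with immediate early genes in red. Of the 2430 genes 847 lie on the same side of 0 on both axes, and all 15 immediate early genes that were lower lie below 0 on both.

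The immediate early genes were lower in the second block too, by an amount that rested on 1 library. All 15 had a log2 fold change below 0 there, with a median of -0.59, where 49.1% of all genes were lower, and 14 were lower in both strata, beside 35.8% of all genes. Of the whole list 28 of 29 tested members were lower. Egr1 was at 39.8 and 34.4 CPM in male controls against 35.5 and 14.8 with SCFA, and at 29.2 and 206 in female controls against 62.9. The groups overlapped in both strata. None of the pooled second-block values of Egr1, Fos or Nr4a1 passed the test (edgeR, adjusted p = 0.359, 0.374 and 0.347). Without the female 14 dpl control replicate 3, 10 of the 15 were lower and the median was -0.08. Klf4 (-1.21), Cdkn1a (-0.76), Per1 (-0.41), Plk2 (-0.65) and Col9a3 (-0.47), a cartilage-type collagen, were called lower in the second block as in the first. Hist1h2be (0.41) was called higher in both. These calls did not hold when 1 library was left out. Without either male 3 dpl control no same-sign gene was called in the same direction (0 of 2427 and 0 of 2429 tested). Without the male 3 dpl SCFA replicate 3 it was 1, and without replicate 2 it was 53.

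Several lists lay on the other side of 0 in the second block. All 15 ribosomal genes, all 14 oxidative phosphorylation genes, all 8 protocadherins and all 4 amacrine and horizontal cell genes of 1 sign did so. Of the 5 bipolar cell genes 2 had the same direction, and of the 3 retinal ganglion cell genes 1 did. The retinal ganglion cell list as a whole kept a median below 0, -0.13 against -0.26. Ribosomal protein genes as a list had a median log2 fold change of 0.27 there, against -0.13 in the 29 libraries, and receptor subunits -0.36 against 0.13. The mitochondrially encoded mRNAs stayed above 0, with a list median of 0.545 against 0.418 and 0 of 13 lower. Among single genes Ptch1 was at -0.45, Esrrg at -0.40 and Hlf at -0.42 in the second block, each called there (edgeR, adjusted p = 0.029, 0.0492 and 0.0243). In the second block the log2 fold change correlated with transcript length at a rho of -0.42 and with GC content at -0.06, and the mitochondrial share was 2.65 to 4.52% against 5.19 to 16.6% in the 29 libraries. What part these shifts between the blocks had in the results was not tested.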

How the data were processed

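Whole-retina RNA was sequenced by the study, and the authors deposited raw read counts per Ensembl gene on mm10. The deposited counts carry no normalization. The processing notes name DESeq2, and the aligner, counter, annotation and strand setting are not given in the sources used here. Of 54532 genes, 54495 matched GENCODE M21. Groups came from sample titles, because the treatment label reads control for every sample. Counts were filtered with filterByExpr by stratum and treatment and TMM-scaled. SCFA was tested with stratum terms by edgeR 4.0.16 (quasi-likelihood, Benjamini-Hochberg adjustment over all genes, adjusted p under 0.1). A nested fit gave the sign in each of 6 strata. DESeq2 1.42.0 and limma 3.58.1 were alternatives. The fit was tested on simulated data: of 110 genes changed by 0.5 on the log2 scale 63 were called, of 90 changed by 1 71, and of 18590 unchanged genes 17. Each simulated gene was drawn independently, with its spread taken from a fit without the SCFA term. The simulation held no shift shared by the genes of a library, so it cannot give the number of false calls among the 6408. No pair of libraries agreed within sampling noise. Libraries are separate pools of 2 retinas, and p-values measure the spread between these pools. Genes named are the 12 higher and 12 lower same-sign genes of smallest adjusted p, those over 1 in absolute log2 fold change (all by count, most by name), and same-sign list members with examples. Members, lists and rules were chosen with earlier results of these data known. Some items are not reported here.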

Additional observations from a re-analysis of the deposited data

Results flagged for a closer look

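5 named genes, Sox9, Ube2r2, Efhd1, Elovl6 and Klf10, were flagged because their SCFA effect differed among the 6 strata (edgeR interaction test, adjusted p = 0.09 for each). The first 4 had their highest log2 fold change in male mice at 7 dpl, 1.27 for Sox9, 0.85 for Ube2r2, 1.51 for Efhd1 and 1.28 for Elovl6. At 0.05 no gene passed this test, and with all 31 libraries none did at 0.1.

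Both left-out libraries held a signal outside the comparison. The female 3 dpl SCFA replicate 2 library had 247000 CPM of 18 lens genes, where the other 41 libraries had a median of 50.2 and at most 868. The female 7 dpl control replicate 2 library had 38.8 CPM of 4 Y-linked genes, where the other 20 female libraries had 0 and male libraries at least 137. Groups had 3 libraries at most within the comparison, so no outlier test was run.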

How the results depend on the processing

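The 6408 called genes became 3844 without males at 7 dpl and 4159 without the 4 libraries richest in surface epithelium transcripts, an alternative chosen after seeing the data. The 2483 same-sign genes became 612 when the second block entered as its own strata, 585 of them shared, 4413 with the 4 strata that have 2 libraries or more per arm, and 4154 without females at 14 dpl. Leaving out 1 library gave 2041 (without the female 7 dpl control replicate 1) to 4154 (without the female 14 dpl control, which drops its stratum), and 5638 to 6680 called genes. The 245 called genes over 1 in absolute log2 fold change (1.28%) became 418 with no count filter, 22 with 10 counts required in every library, 119 without males at 7 dpl, 124 with the mitochondrial covariate and 135 without the 4 epithelium-rich libraries. The strata difference (265 genes) became 0 at an adjusted p under 0.05, 2875 without the filter, 0 with all 31 libraries and 2095 with DESeq2. The sex difference (1464) became 512, 0 with all 31 and 2246 with DESeq2. The day difference (0) became 468 without the filter and 2 with DESeq2. Same-direction calls in the second block (98) became 28 at 0.05, and 0 to 197 leaving out 1 library. Same-sign genes called in females alone (1017) became 565 at 0.05. The cause was not tested.

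With a replicate block over the pairs that share a number, 6408 genes were called and 3065 were of 1 sign, against 6700 and 3091 in the same libraries without it. The numbers did not pair the samples: of 10 pairs 2 had a correlation of deviations over 0.1, with a range of -0.089 to 0.164. For 118 named genes under 51 settings, 5804 of 5985 values kept direction and side of the threshold, 180 fell short of it and 1 reversed: Jun, not called in either fit, had a log2 fold change of 0.0395 with the GC and length trend removed, an alternative added after seeing the data.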
